A study of Mus musculus with 4 samples.

Results

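Single-nuclei RNA of the hippocampus was compared between mice exposed to repeated social defeat (RSD) and undisturbed mice, both fed the vehicle diet. The comparison holds 7332 Stress-Vehicle nuclei and 8474 Control-Vehicle nuclei, which are 15806 of the 56834 nuclei in the 8 pools of the study. Nuclei were chosen by the pool named for them in the authors' table and by the study's limit of 20% mitochondrial transcripts, before which there were 15869 of 57350. Each condition was 1 pool made from the hippocampi of 3 male C57BL/6 mice, 5 to 7 weeks old when purchased. In RSD, an aggressive CD-1 male entered the home cage for 2 h on each of 6 nights, while controls stayed undisturbed. Both groups received plain AIN-76A chow, which carries the drug in the PLX5622 groups, from 7 days before RSD. Nuclei were isolated 14 h after the last defeat, cleared of myelin debris with beads, fixed, and barcoded by split-pool rounds and divided into sublibraries, of which 4 were analysed here, each with nuclei from all 8 pools. The study's remaining pools, used here only for reference, are a PLX5622 pair on the same design and a pair each of IL-1R1+/+ mice and of mice lacking neuronal IL-1R1.

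RSD raises circulating corticosterone, which enters the brain and acts through the glucocorticoid receptor and the mineralocorticoid receptor, both abundant in the hippocampus. Activated receptors turn on genes such as Fkbp5, Sgk1, Zbtb16 and Per1, and neuronal activity acts through CREB on genes such as Bdnf, Nr4a3 and Per1. Granule neurons of the dentate gyrus (DG) project to CA3, CA3 projects to CA1, and local inhibitory neurons (INH) control all of these, while astrocytes, oligodendrocytes, microglia and vessels sense the same hormone.

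Stress-Vehicle nuclei were shallower than Control-Vehicle nuclei. The median number of unique transcripts (UMIs) per nucleus was 2563 in Control-Vehicle and 1325.5 in Stress-Vehicle, and the totals were 38690912 and 15154151 UMIs. In Control-Vehicle 457 nuclei (5.39%) and in Stress-Vehicle 1230 nuclei (16.8%) held under 500 UMIs. The sublibrary medians ran from 1366 to 4443.5 UMIs in Control-Vehicle and from 697 to 2514 in Stress-Vehicle, and in each sublibrary the stress pool was the lower. Mitochondrial UMIs were 0.171% and 0.195% of the total, reads per UMI were 7.50 and 7.71, and no barcode was shared between pools. Since a condition is 1 pool, there is no replicate and no test: levels are UMIs of a gene per 1000000 UMIs of the class (CPM), and every interval is an exact 95% interval that covers counting error only. The range over the 4 sublibraries, which are technical divisions of a pool, is given as the technical spread.

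Nuclei were clustered together with those of the other pools and each cluster was named, as DG-like for instance, from marker genes. These names are the check of the hippocampal label, and the pyramidal, granule and inhibitory shares are given below. As a check on the diet label, microglia-like nuclei numbered 176 and 160 in Control-Vehicle and Stress-Vehicle and 10 and 8 in the PLX5622 pools. Summed markers of monocytes and lymphocytes gave 21.3 CPM in Control-Vehicle and 18.9 CPM in Stress-Vehicle, with 4 and 3 of 10 markers at 0, and macrophage markers gave 4.34 and 4.75 CPM. At the unequal depths given above, 24 and 4 nuclei held 2 or more of the monocyte and lymphocyte markers. Skap1, on that list, is also a leading gene of the cluster led by Kcnh8 and Sntb1. Within DG-like nuclei the list gave 18.7 and 13.7 CPM, so its sum does not measure monocytes and lymphocytes alone.

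Oligodendrocyte-like and astrocyte-like nuclei were a smaller part of the Stress-Vehicle pool than of the Control-Vehicle pool, vessel-like nuclei were a larger part with overlapping sublibraries, and DG-like and microglia-like nuclei took similar parts of both. Oligodendrocyte-like nuclei, which make myelin in the intact tissue, were 3.46% (3.08 to 3.87%) of Control-Vehicle and 1.84% (1.55 to 2.18%) of Stress-Vehicle, a log2 ratio of -0.91. The 4 sublibraries gave 2.96 to 4.15% in control and 1.46 to 2.14% in stress, so that the ranges did not overlap. In the IL-1R1+/+ pair the same log2 ratio was -0.20, but it was 1.02 in the PLX5622 pair and 0.69 in the pair lacking neuronal IL-1R1. With clusters built from the vehicle pools alone the class held 611 and 303 nuclei, and the ratio of the vehicle pair was -0.80. Astrocyte-like nuclei were 2.75% (2.41 to 3.12%) and 2.09% (1.77 to 2.44%), and again the sublibrary ranges, 2.59 to 2.98% and 1.88 to 2.26%, stood apart. Their log2 ratio was -0.40 here and -0.95 in the IL-1R1+/+ pair. It was 1.325 in the PLX5622 pair and 0.235 in the pair lacking neuronal IL-1R1. Oligodendrocyte precursor-like nuclei, the cycling reserve of this lineage, were 2.68% and 2.16%, with a log2 ratio of -0.31, and here the sublibraries overlapped. Microglia-like nuclei were 2.08% (1.78 to 2.40%) and 2.18% (1.86 to 2.54%). Vessel-like nuclei, from endothelium and mural cells, numbered only 32 and 46, or 0.378% (0.258 to 0.533%) and 0.627% (0.460 to 0.836%). Their sublibraries overlapped, at 0.188 to 0.513% in control and 0.285 to 0.937% in stress.

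**Figure D1:**
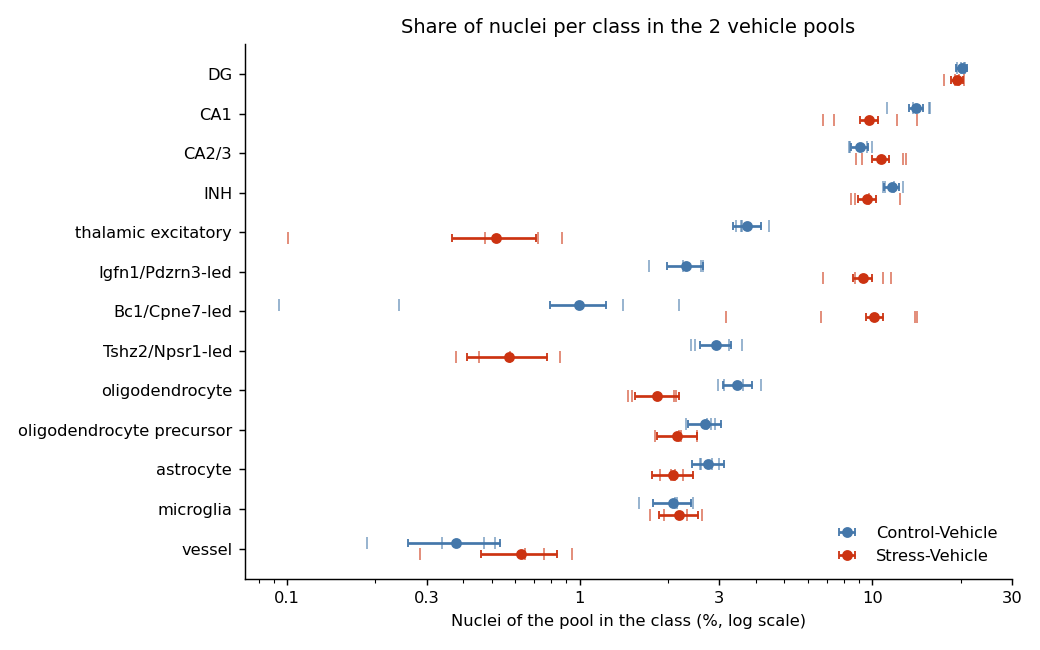
Share of each pool's nuclei in each named class and in unnamed clusters (percent, log axis) for Control-Vehicle and Stress-Vehicle, with exact 95% intervals as bars and a tick for each sublibrary. Oligodendrocyte-like nuclei were 3.46% and 1.84%, while DG-like nuclei were 20.2% and 19.4% of the 2 pools.

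Among neurons, DG-like nuclei were 20.2% (19.3 to 21.1%) of Control-Vehicle and 19.4% (18.5 to 20.4%) of Stress-Vehicle. They came from a deep and a shallow cluster, and the deep one held 13.4% of control and 7.72% of stress nuclei while the shallow one held 6.75% and 11.7%. CA1-like nuclei were 14.1% and 9.71%, a log2 ratio of -0.54, but this direction rests on the naming of clusters. An unnamed cluster led by Bc1 and Cpne7, whose best score was for CA1, held 84 control and 745 stress nuclei (0.991% and 10.2%). When unnamed clusters were counted by their best score the CA1 log2 ratio was 0.39, and with clusters built from the vehicle pools alone it was 0.52. CA2/3-like nuclei were 9.04% and 10.7%, a log2 ratio of 0.24, and this too turned, to -0.09 by best score and to -0.37 with clusters from the vehicle pools. INH-like nuclei were 11.6% (10.9 to 12.3%) and 9.62% (8.95 to 10.3%), with a log2 ratio of -0.27 that was 0.54 in the IL-1R1+/+ pair. The pools of that pair also differed widely in thalamic excitatory-like nuclei, as given below. The part of this in the INH-like ratio was not tested.

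Clusters with markers of tissue next to the hippocampus differed by unequal amounts. Thalamic excitatory-like nuclei, with Slc17a6 and Tcf7l2 among their markers, numbered 317 (3.74%) in Control-Vehicle and 38 (0.518%) in Stress-Vehicle, a log2 ratio of -2.85. In the IL-1R1+/+ pair they were 20.7% of the control and 1.31% of the stress pool, a log2 ratio of -3.98. The class joins a cluster led by Synpo2 and Prkcd and a cluster with Zfhx3 and Ebf2 among its leading genes. In the IL-1R1+/+ pair these clusters numbered 43 and 7, and 1520 and 70. In the vehicle pair they numbered 186 and 8, and 131 and 30, so the class ratios rest on different clusters. The unnamed neurons led by Igfn1 and Pdzrn3 numbered 195 and 679, those led by Tshz2 and Npsr1 numbered 247 and 42, and those led by Cpa6 numbered 79 and 11. The clusters that scored highest for retrohippocampal cortex, led by Rai14 and Sulf1 and by Kcnh8 and Sntb1, had log2 ratios of 0.23 and -0.36. Igfn1, Tshz2 and Cpa6 are on the list of markers of retrohippocampal cortex used here. The clusters they lead nevertheless scored highest for CA1, with retrohippocampal cortex second. They are therefore counted as CA1 in the ratio by best score given above. How much of that cortex and of thalamus each dissection held was not tested, and since all shares sum to 100%, these clusters enter every other share.

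Within the 9 classes that could be measured, most genes lay close to equal levels, and 3077 class-gene pairs were past 1.5-fold higher and 2139 past 1.5-fold lower in stress. Centred within 10 bins of gene span, as described below, these were 2205 and 2153, so the excess of higher genes was not kept. Only genes with at least 100 UMIs over both pools in a class were counted. In DG-like nuclei 365 of 6866 genes were higher (5.32%) and 246 lower (3.58%). CA1-like nuclei had 594 of 6546 higher (9.07%) and 473 lower (7.23%). In CA2/3-like nuclei 859 of 6767 were higher (12.7%) and 391 lower (5.78%). INH-like nuclei had 480 of 8058 higher (5.96%) and 334 lower (4.14%). These percentages are the background against which each neuronal list below is read. Centred by gene span, the granule class had 257 higher and 252 lower genes, CA1-like nuclei had 410 and 486, the CA2/3 class 546 and 474, and inhibitory neurons 323 and 373. In the larger DG-like cluster alone 229 genes were higher and 225 lower.

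Glial and vessel sums were smaller, so fewer genes reached the minimum. Oligodendrocyte-like nuclei had 54 of 1067 higher (5.06%) and 77 lower (7.22%), and their precursors 159 of 2616 higher (6.08%) and 142 lower (5.43%). Astrocyte-like nuclei had 148 of 2124 higher (6.97%) and 156 lower (7.34%). Microglia-like nuclei had 384 of 2854 higher (13.5%) and 298 lower (10.4%), and vessel-like nuclei had 34 of 245 higher (13.9%) and 22 lower (8.98%). These percentages are the background for the glial and vessel lists below. Centring within bins of gene span gave 65 higher and 60 lower in oligodendrocyte-like nuclei and 108 and 134 in their precursors, and centring on the median gene gave 178 and 124 in astrocyte-like nuclei. Without sublibrary 4 the microglia-like counts were 193 and 184. The median log2 ratio of all genes lay between -0.05 and 0.08 in every class. The UMI sums behind these counts ran from 428187 to 6809683 in control and from 148156 to 2193085 in stress, apart from the vessel-like class with 52069 and 134108 UMIs.

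The log2 ratio moved with the span of the gene. In DG-like nuclei the shortest of 4 bins of genes had a median of 0.16 and the longest -0.09, and in CA1-like nuclei these were 0.25 and -0.17. CA2/3-like nuclei gave 0.34 and -0.11, and microglia-like nuclei 0.25 and -0.28. In the oligodendrocyte-like class the medians were -0.00 and -0.11. The IL-1R1+/+ pair showed medians between -0.12 and 0.10 over 8 classes and 4 bins. The part of gene span in any single gene's ratio was not tested, but log2 ratios centred within 10 bins of gene span are given for the genes described below whose call they end.

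**Figure D2:**
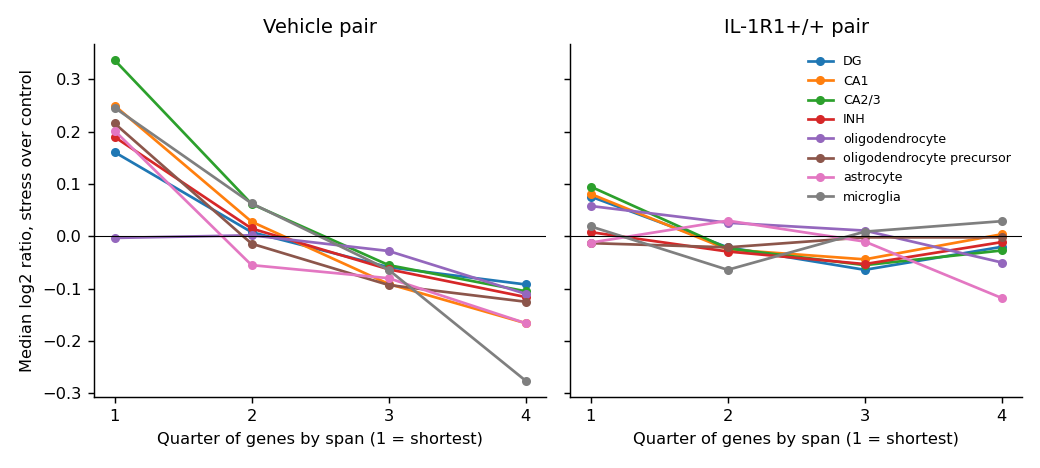
Median log2 ratio of stress over control for genes in 4 bins of genomic span (1 is the shortest), one line per class, in the vehicle pair and in the IL-1R1+/+ pair. In the vehicle pair the CA2/3 line ran from 0.34 to -0.11 and the microglia line from 0.25 to -0.28.

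Across classes and before centring, the 10 genes past 1.5-fold in the most classes were all higher in stress, and 5 of them, Luc7l3, Sf3b2, Prpf38b, Arglu1 and Rbm25, encode proteins of the splicing machinery or its regulators. Luc7l3, a partner of the U1 snRNP (chromosome 11, 94178716 to 94213205, GRCm39), was past 1.5-fold in 8 of 8 classes, with log2 ratios from 0.70 to 1.11. In CA1-like nuclei it measured 388.4 to 542 CPM over the control sublibraries and 778 to 1121 CPM over the stress sublibraries. Rbm25 was past in 7 of 8 classes with 751 and 1305 CPM in DG-like nuclei, and Sf3b2, a subunit of the U2 snRNP, in 7 of 7 classes. Brd9 and Chd5, which are chromatin proteins, and Nmt1, which attaches myristate to proteins, were past in 7 of 7 classes each. Centred by gene span, Luc7l3 was past in 6 of 8 classes, with 0.40 in astrocyte-like and 0.51 in microglia-like nuclei. Sf3b2 was then past in 4 of 7 classes, Rbm25 and Arglu1 in 5 of 8 and Prpf38b in 3 of 8, while Brd9 was past in 7 of 7 and Nmt1 in 6 of 7. In the IL-1R1+/+ pair the medians of Luc7l3, Sf3b2, Prpf38b, Arglu1 and Rbm25 over classes lay between -0.15 and 0.14. In the PLX5622 pair, which is shallower, the same 5 medians lay between 1.08 and 1.40, and in the pair lacking neuronal IL-1R1 between -0.03 and 0.06.

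Rn7sk and Cdk8 had the largest ratios of this group. Rn7sk, the 7SK RNA that holds the elongation factor P-TEFb inactive (chromosome 9, 78082585 to 78082915), was past 1.5-fold in 8 of 8 classes. Its log2 ratio ran from 0.86 in oligodendrocyte precursor-like to 2.67 (2.28 to 3.08) in microglia-like nuclei. It also ran from 1.52 to 2.36 over the 7 classes measured in the IL-1R1+/+ pair, but 7SK has many near-identical copies in the genome, so its count is uncertain. In the PLX5622 pair it was measured in 2 classes, at -1.02 and -0.82, and in the pair lacking neuronal IL-1R1 it ran from -0.15 to 1.80. Centred by gene span it stood at 0.50 in oligodendrocyte precursor-like nuclei, under 1.5-fold, and was past in 7 of 8 classes. Cdk8, the kinase of the Mediator complex (chromosome 5, 146167823 to 146241320), was past in 7 of 8 classes, up to 2.09 in CA2/3-like nuclei. In DG-like nuclei it measured 575 to 1052 CPM over the control sublibraries and 2179 to 2819 CPM over the stress sublibraries, which did not overlap. Cdk8 had log2 ratios from -0.74 to 0.08 over the same classes of the IL-1R1+/+ pair. Its ratios ran from -1.47 to -0.58 in the PLX5622 pair and from 0.44 to 1.66 in the pair lacking neuronal IL-1R1. Cdk8 was also among the leading genes of the shallowest cluster, which was unnamed and led by mt-Rnr2 and mt-Rnr1. The same held for the smaller CA2/3-like cluster described below. What this means for its count was not tested.

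**Figure D3:**
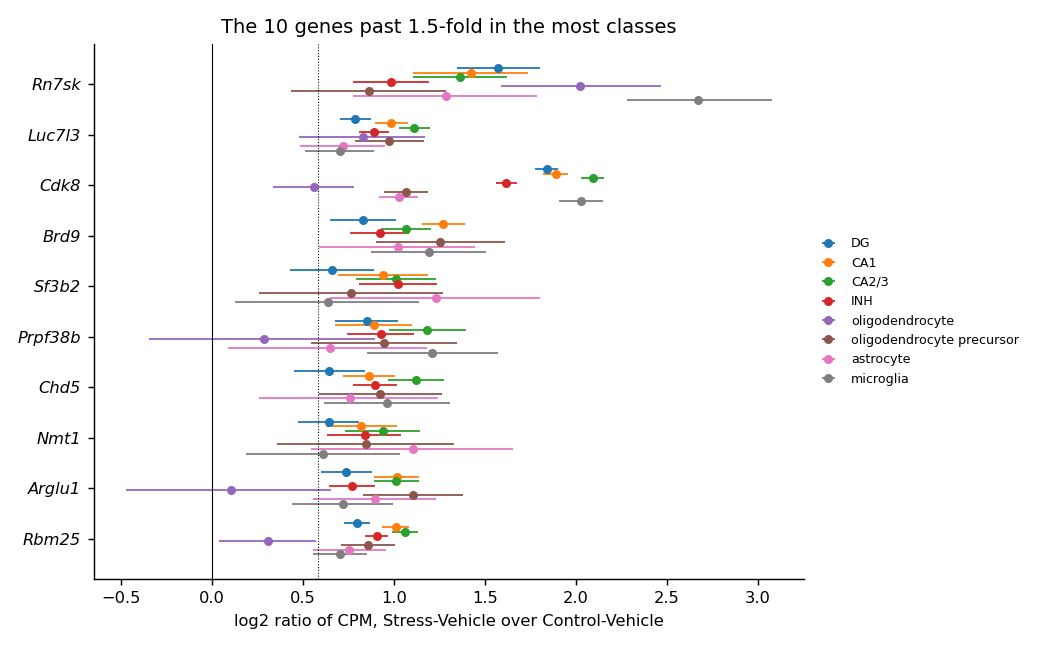
Log2 ratio of Stress-Vehicle over Control-Vehicle for the 10 genes past 1.5-fold in the most classes, one point per class with its 95% counting interval, not centred by gene span, and a dotted line at 1.5-fold. Rn7sk and Luc7l3 lie to the right of the dotted line in 8 of 8 classes and Cdk8 in 7 of 8.

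The period genes Per1, Per2 and Per3, which encode repressors of the circadian clock, stood higher in stress in the pyramidal classes. Per1 is also turned on directly by glucocorticoid and by CREB. The promoters of Per1 and Per3 held in the RefSeq table (GRCm38.p6, while the counts are on mm39) are shown because the 3 genes were higher together in CA1-like nuclei, with capitals marking the E-box bound by the clock (CACGTG) and TGACG, the core of the cAMP response element. Per1 has a pair of promoters there, at chr11:69098699-69098948 and chr11:69099902-69100151 on the plus strand, and Per3 has 1 at chr4:151044666-151044915 on the minus strand, each given as the 250 bases before the start of transcription.
Per1 promoter 1: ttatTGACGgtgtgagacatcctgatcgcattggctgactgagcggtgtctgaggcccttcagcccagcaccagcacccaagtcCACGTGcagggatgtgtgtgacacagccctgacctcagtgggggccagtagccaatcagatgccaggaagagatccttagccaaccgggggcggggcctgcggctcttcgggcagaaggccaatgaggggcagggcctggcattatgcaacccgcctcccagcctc
Per1 promoter 2: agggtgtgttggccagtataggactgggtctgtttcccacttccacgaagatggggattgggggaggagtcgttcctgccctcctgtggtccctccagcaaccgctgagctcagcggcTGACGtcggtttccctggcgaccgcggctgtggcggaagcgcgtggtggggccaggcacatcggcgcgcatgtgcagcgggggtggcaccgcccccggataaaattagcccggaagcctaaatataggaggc
Per3 promoter: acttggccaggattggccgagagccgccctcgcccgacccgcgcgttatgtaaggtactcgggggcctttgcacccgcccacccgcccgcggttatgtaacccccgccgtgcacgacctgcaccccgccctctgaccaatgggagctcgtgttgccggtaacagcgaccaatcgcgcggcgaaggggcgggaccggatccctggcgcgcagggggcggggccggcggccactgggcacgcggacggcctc
The E-box occurs once, at -166 in the first Per1 promoter, and TGACG once in each Per1 promoter. Searched on both strands, CACGTG was found in 6.02%, TGACG in 17.8% and the full element TGACGTCA, which contains TGACG, in 1.55% of 32851 mouse promoters of this length. The full element was in none of the 3 windows, which says only that these letters are absent from them.

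In CA1-like nuclei, Per1 measured 49.7, 44.6, 60.9 and 59.0 CPM in the 4 sublibraries of Control-Vehicle and 97.1, 104, 52.2 and 89.3 CPM in those of Stress-Vehicle. The pooled levels were 53.8 and 89.8 CPM, a log2 ratio of 0.74 (0.43 to 1.04), and 1 stress sublibrary lay within the control range. Per2 gave 73.0 to 93.8 CPM in control and 124 to 191.5 CPM in stress, a log2 ratio of 0.77 (0.53 to 1.02). Per3 gave 16.5 to 25.4 CPM and 34.3 to 52.4 CPM, a log2 ratio of 0.92 (0.44 to 1.39). For Per2 and Per3 the sublibraries of the pools did not overlap. In CA2/3-like nuclei the log2 ratios of Per1, Per2 and Per3 were 0.64, 0.73 and 0.87, and the PAR bZIP genes Tef and Hlf, outputs of the clock, stood at 0.63 and 0.90. Centred by gene span, Per1 was under 1.5-fold in both classes (0.54 and 0.36), as was Tef (0.47), while Per2, Per3 and Hlf stayed past it. In the IL-1R1+/+ pair the CA1-like log2 ratios of Per1, Per2 and Per3 were 0.47, 0.25 and 0.43.

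The count of clock genes differed between classes. Of 18 listed clock genes in the files, 10 were measured in CA1-like nuclei with 3 higher, and 10 in CA2/3-like nuclei with 5 higher, or 2 and 4 after centring by gene span, where Npas2, a partner of Arntl, was past it in CA2/3-like nuclei (0.61). In DG-like nuclei 1 of 11 was higher, namely Per1 at 23.7 and 38.3 CPM, and in INH-like nuclei 2 of 12, Per2 and Rorb. No clock gene was past 1.5-fold lower in any class. The median log2 ratio of the list was 0.57 in CA2/3-like nuclei, where that of all genes was 0.04, and lay between 0.06 and 0.09 in the other neuronal classes. With clusters built from the vehicle pools alone the CA2/3 median was 0.18. In the IL-1R1+/+ pair the median of the same genes was 0.01 in CA2/3-like and 0.02 in CA1-like nuclei. It was 0.16 in DG-like and 0.02 in INH-like nuclei of that pair.

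**Figure D4:**
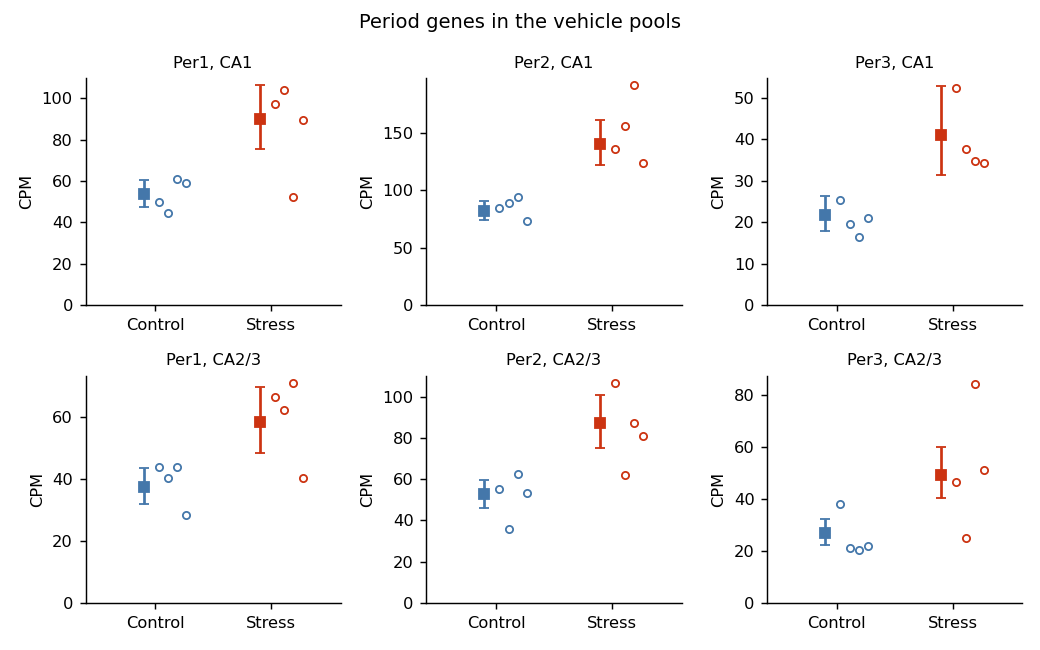
CPM of Per1, Per2 and Per3 in CA1-like and CA2/3-like nuclei of both vehicle pools, with a point for each of the 4 sublibraries and the pooled value with its 95% counting interval. In CA1-like nuclei the Per2 points run from 73.0 to 93.8 CPM in control and from 124 to 191.5 CPM in stress.

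In DG-like nuclei the genes farthest higher, after Cdk8 and Rn7sk, were Slc17a9 and Mmel1. Slc17a9, the vesicular nucleotide transporter that loads ATP, measured 34.3 and 98.0 CPM in Control-Vehicle and Stress-Vehicle, a log2 ratio of 1.51 (1.22 to 1.82), with sublibraries of 22.8 to 49.2 and 83.0 to 121 CPM. Mmel1, a membrane peptidase related to neprilysin, measured 71.7 and 203 CPM. The genes farthest lower were Dnah7c, an axonemal dynein (20.8 and 5.47 CPM), Trhr, the receptor of thyrotropin-releasing hormone (18.5 and 5.02 CPM), Dach1, a transcription factor (21.4 and 7.30 CPM), and Prr16 (227 and 114 CPM). Prr16 gave 220.4 to 236 CPM in the control sublibraries and 95.8 to 131 CPM in the stress sublibraries. Slc17a9 and Mmel1 had log2 ratios of -0.17 and -0.56 in the IL-1R1+/+ pair. These were -0.05 and -1.45 in the PLX5622 pair and 0.63 and 0.53 in the pair lacking neuronal IL-1R1. Mmel1 led the shallow DG-like cluster, which held 6.75% of control and 11.7% of stress nuclei. Slc17a9 was among the leading genes of the unnamed cluster led by Bc1 and Cpne7. The part of this makeup in the values of the class was not tested.

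The measured receptors of stress hormone and of IL-1 lay within 1.5-fold of their control level in DG-like nuclei. Il1r1, the IL-1 receptor that among neurons is highest in this class, gave 400 and 160 UMIs, or 83.2 (75.2 to 91.7) and 73.0 (62.1 to 85.2) CPM, a log2 ratio of -0.19 (-0.46 to 0.08). The sublibraries ran from 74.2 to 93.1 CPM in control and from 62.9 to 94.7 CPM in stress, which overlapped. In the IL-1R1+/+ pair the log2 ratio was -1.08. Nr3c1, the glucocorticoid receptor, had a log2 ratio of -0.08 (-0.37 to 0.20), and Fkbp5, its co-chaperone and target, 0.09 (-0.11 to 0.29). The 2 measured corticosteroid and CRH receptors, Nr3c1 among them, had a median of -0.19, and -0.47 in the IL-1R1+/+ pair. Among 6 measured glucocorticoid-responsive genes, Per1 was past 1.5-fold higher and Sgk3 past 1.5-fold lower, with a list median of 0.14. Of 8 measured genes of IL-1 and NF-kB signalling none was past 1.5-fold, with a median of -0.18 against -0.01 for all genes.

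Of the 26 genes of CREB, BDNF and calcium signalling, all 26 were measured in DG-like nuclei, 1 was higher and 2 lower, and their median log2 ratio was -0.00. Crtc2, a coactivator of CREB, was higher (0.81, but 0.53 centred by gene span), while Prkacb, a catalytic subunit of protein kinase A (-0.82), and Crem (-0.72) were lower. Creb1 gave a log2 ratio of -0.23 (-0.66 to 0.18) and Ntrk2, the BDNF receptor, 0.02 (-0.08 to 0.12). Gabrb2, a subunit of GABA-A receptors, was lower at 361.5 and 214 CPM, and Grin3a, a subunit of NMDA receptors, at 38.2 and 23.7 CPM. Each was the only member past 1.5-fold lower of its receptor family, among 10 and 14 measured. Calr, a chaperone of the endoplasmic reticulum, was higher at 23.5 and 49.2 CPM.

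In CA1-like nuclei the farthest higher genes were Erdr1, Cdk8, Bcan and Brd9. Erdr1, in the pseudoautosomal region and hard to assign because of repeated copies, gave 20.8 and 99.9 CPM, a log2 ratio of 2.27 that was 3.54 in the IL-1R1+/+ pair. Bcan, a proteoglycan of perineuronal nets, gave 35.3 and 95.9 CPM, with sublibraries of 21.4 to 38.1 and 66.1 to 122 CPM. The farthest lower were Tmem163, a zinc transporter (44.9 and 13.5 CPM), Slit2, an axon guidance ligand (160.2 and 52.7 CPM), Pcdh15, a protocadherin (448.5 and 159 CPM), and Rftn1, a lipid raft protein (66.5 and 25.6 CPM). Pcdh15 gave 331 to 495 CPM over the control and 128 to 184.5 CPM over the stress sublibraries. These 4 genes had log2 ratios between -0.06 and 0.38 in the IL-1R1+/+ pair. The makeup of this class also differed between the pools. With finer clusters, CA1-like nuclei led by Fibcd1 and Cpne7 numbered 700 and 196, and those led by Malat1 and Bc1 numbered 267 and 452. In the IL-1R1+/+ pair these were 259 and 202, and 108 and 89. Summed thalamic excitatory markers were 304 and 151 CPM in the CA1-like class, and INH markers 381 and 508 CPM. Their part in the values of the class was not tested.

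Calcium and synaptic genes of CA1-like nuclei went in both directions. Of 26 measured genes of CREB, BDNF and calcium signalling 2 were higher and 3 lower. Among 17 synaptic adhesion genes 1 was higher and 2 were lower, Lrrtm3 and Cntn5. Over all genes of the class 9.07% were higher and 7.23% lower. Centred by gene span, the lists had 3 higher and 1 lower, and 2 higher and 1 lower. Camk2b, the beta subunit of CaM kinase II, gave 679.5 to 782 CPM over the control and 1233 to 1370 CPM over the stress sublibraries, with a log2 ratio of 0.80 (0.72 to 0.88). Camk4, the nuclear kinase that phosphorylates CREB, gave 218 to 259 and 104 to 132 CPM, a log2 ratio of -0.98 (-1.22 to -0.75). Neither gene's sublibraries overlapped between pools. Shank1, a scaffold of the postsynaptic density, was higher (926 and 1465 CPM). Of 10 GABA-A receptor genes none was higher and 2 were lower, Gabra3 (-1.05) and Gabrb2 (-0.70, or -0.52 centred by gene span), and the list had a median of -0.38. Of 7 activity genes, Nr4a3 (92.3 and 52.7 CPM) and Bdnf (25.4 and 16.9 CPM) were lower and none higher, with a list median of -0.36. In the IL-1R1+/+ pair the median of the same genes was 0.37. The activity list had medians of -0.425 and 0.179 in INH-like nuclei of the vehicle and IL-1R1+/+ pairs. In CA2/3-like nuclei these were -0.399 and -0.123. For Bdnf, the neurotrophin, the interval of the log2 ratio ran from -1.27 to 0.04, and the ratio centred by gene span was -0.54, under 1.5-fold.

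CA2/3-like nuclei had the highest percentage of higher genes among neurons, and the makeup of the class differed between the pools. A smaller cluster of this class held 65 control and 269 stress nuclei, and its main cluster 701 and 515. Summed DG markers in the class were 745 and 1332 CPM, INH markers were 391 and 701 CPM in Control-Vehicle and Stress-Vehicle, and oligodendrocyte markers had a log2 ratio of 0.63, with 13 of 14, 14 of 20 and 12 of 16 markers higher. At 0 were no DG marker, 3 INH markers in each pool and no oligodendrocyte marker. Their part in the results of this class was not tested, but in the main cluster alone 741 and not 859 genes were past 1.5-fold higher and 540 and not 391 lower.

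Ccnb1ip1, Rpph1 and Grik3 were the farthest higher in CA2/3-like nuclei, and for these the smaller cluster decided the value. Ccnb1ip1, a meiotic ubiquitin ligase, gave 17.1 and 185 CPM, a log2 ratio of 3.43 that was 1.17 in the main cluster alone. Rpph1, the RNA of ribonuclease P, gave 14.0 and 101 CPM, and its log2 ratio of 2.84 turned to -0.48 in the main cluster. Rpph1 lies inside the span of Ccnb1ip1 on the same strand of chromosome 14 (51044906 to 51045224 in 51026696 to 51045263), so their reads may not be told apart. Grik3, a kainate receptor subunit typical of dentate granule neurons, gave 23.7 and 118 CPM, and its ratio of 2.32 was 0.78 in the main cluster.

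The farthest lower gene of high level in CA2/3-like nuclei was Kcnq5, a potassium channel of the M-current (chromosome 1, 21468627 to 22032166). It gave 3366 to 4075 CPM over the 4 control sublibraries and 1196 to 1533 CPM over the 4 stress sublibraries, a log2 ratio of -1.36 (-1.42 to -1.31), and 0.16 in the IL-1R1+/+ pair. Dnah7c (31.3 and 8.07 CPM), Tmem132c (26.7 and 7.12 CPM) and Pcsk1, which cleaves prohormones (26.5 and 7.12 CPM), were also lower. Hmgcs1, an enzyme early in cholesterol synthesis, gave 18.8 and 6.64 CPM and was the only one of 7 measured genes of that pathway past 1.5-fold.

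Of 11 chaperone genes in CA2/3-like nuclei 4 were higher, namely Hsp90ab1, Hspa5, Hsp90b1 and Calr, with log2 ratios from 0.64 to 0.94, and none was lower. After centring within 10 bins of gene span all 4 lay under 1.5-fold, between 0.18 and 0.49. Of 25 genes of CREB, BDNF and calcium signalling 5 were higher and 1 lower. These were Crtc1 (0.68), Crtc2, Camk2b (0.71), Adcy1 (1.02) and Itpr1 (0.67) against Camk2d (-0.68, or -0.55 centred by gene span). The log2 ratio of Crtc2 was 0.77, which was 0.31 centred by gene span and turned to -0.18 after thinning every nucleus to 500 UMIs. Nr4a3 and Nr4a2, orphan nuclear receptors induced by activity, were lower (-0.88 and -0.78), and Vgf, a neuropeptide precursor, was higher at 10.9 and 29.4 CPM.

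In INH-like nuclei Ccnb1ip1 (9.84 and 59.4 CPM), Rpph1 (6.17 and 30.6 CPM), Mmel1 (25.1 and 82.2 CPM) and Cdk8 (732 and 2247 CPM) were the farthest higher. Dnah7c (25.9 and 5.02 CPM), Ano2, a calcium-activated chloride channel (13.9 and 4.57 CPM), Bdnf (17.8 and 6.39 CPM) and Ikzf2, a transcription factor (32.8 and 14.2 CPM), were the farthest lower. Bdnf counted 121 and 14 UMIs, and its sublibraries ran from 8.72 to 26.7 CPM in control and from 3.54 to 9.49 CPM in stress, which overlapped. Inhibitory neurons normally hold little Bdnf RNA, and the DG, CA1 and CA2/3 markers summed in this class gave 3507 and 3201 CPM, with 0 and 1 of 39 at 0. What those markers contribute to the Bdnf value was not tested. Nr4a3 gave 57.3 and 20.6 CPM, a log2 ratio of -1.48 that was 0.03 after thinning.

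Other signalling genes of INH-like nuclei were few. Irak1, a kinase below the IL-1 receptor (20.6 and 31.1 CPM), and Rela, a subunit of NF-kB (14.5 and 24.2 CPM), were the 2 higher of 10 measured IL-1 and NF-kB genes, and both lay under 1.5-fold when centred within 10 bins of gene span (0.32 and 0.46). Gabrd, the extrasynaptic GABA-A subunit, was higher at 15.0 and 26.9 CPM, though its log2 ratio centred by gene span was 0.57, under 1.5-fold, while the median over 11 measured GABA-A genes was -0.31. Shank1 (587 and 969 CPM) and Camk2b (443 and 666 CPM) were higher here as in CA1-like nuclei. Grin3a was lower (173 and 99.5 CPM), as in DG-like and CA1-like nuclei. Among 7 measured glucocorticoid-responsive genes, Errfi1 alone was past 1.5-fold, and it was lower, with a list median of 0.03.

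Oligodendrocyte-like nuclei showed higher levels of 2 glucocorticoid-responsive genes, Zbtb16 and Sgk3. Zbtb16, a zinc finger repressor that glucocorticoid turns on (chromosome 9, 48563141 to 48748664), gave 958, 1112, 1351 and 1436 CPM in the 4 control sublibraries and 1950, 1856, 2209 and 1998 CPM in the stress sublibraries. The pools did not overlap, and the log2 ratio was 0.76 (0.55 to 0.97), beside 1.32 in the IL-1R1+/+ pair. Sgk3, a kinase of the serum and glucocorticoid regulated family, gave 173 and 405 CPM, a log2 ratio of 1.23 (0.71 to 1.74), beside 1.10 in the IL-1R1+/+ pair. Fkbp5 gave 226.5 (184 to 276) and 270.0 (193 to 368) CPM, a log2 ratio of 0.25 (-0.32 to 0.80). Of 4 measured glucocorticoid-responsive genes 2 were higher and none lower, with a median of 0.51 against -0.04 for all genes. Over all genes of the class 5.06% were higher and 7.22% lower. In DG-like nuclei Sgk3 was past 1.5-fold lower.

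Galnt17, of the family of enzymes that start O-glycans, was also higher in oligodendrocyte-like nuclei (353 and 709 CPM). The farthest lower were Robo1, a receptor for Slit ligands, at 708 and 230 CPM, Pcdh7 at 404 and 149 CPM, Txndc16 at 369 and 148.5 CPM and Pde4d, a phosphodiesterase for cAMP, at 467 and 209 CPM. Robo1 ran from 544 to 869 CPM over the control and from 135 to 364 CPM over the stress sublibraries. Neurons express Robo1 as well, and DG, CA1 and CA2/3 markers summed in this class were 6474 and 5636 CPM, with 9 of 39 at 0 in each pool. Their part in the value was not tested.

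In oligodendrocyte precursor-like nuclei the farthest higher genes were Bc1, a dendritic noncoding RNA of neurons (47.5 and 161 CPM), Brd9 (133 and 317 CPM), Arglu1 (233 and 502 CPM) and Cdk8 (1175 and 2466 CPM). The farthest lower were Slit2 (142 and 54.3 CPM), Ildr2 (109.7 and 43.5 CPM), Epb41l2 (200.5 and 91.2 CPM) and Plppr1 (265 and 132 CPM). The value of Epb41l2 turned from -1.14 to 0.58 with finer clusters. Tcf7l2, which marks precursors on the way to myelination, was lower at 208 and 104 CPM, but its sublibraries ran from 145 to 626 in control and from 60.0 to 330.3 CPM in stress and overlapped. Tcf7l2 is also on the list of thalamic excitatory markers used here. Those markers, Tcf7l2 included, summed to 582 and 358.5 CPM in this class, with 2 of 12 higher, 5 lower and 5 and 6 at 0. The sum therefore holds the value of Tcf7l2 itself. The part of thalamic RNA in the Tcf7l2 value was not tested.

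Astrocyte-like nuclei had higher Vegfa, Ccnd3, Grin2c and Hif3a. Vegfa, the growth factor of vessels (chromosome 17, 46327919 to 46343309), gave 31.5 to 122 CPM over the control sublibraries and 139 to 425 CPM over the stress sublibraries, with a log2 ratio of 1.55 (0.99 to 2.12). Ccnd3, a D-type cyclin, gave 81.3 to 172 and 154 to 595 CPM, a log2 ratio of 1.49 (1.04 to 1.94). The sublibraries of Vegfa stood apart between pools and those of Ccnd3 overlapped. Grin2c, the NMDA receptor subunit found in astrocytes, gave 117 and 302 CPM, and Hif3a, a hypoxia-inducible factor on the glucocorticoid list, 90.3 and 198 CPM. In the IL-1R1+/+ pair the log2 ratios of Vegfa, Ccnd3, Grin2c and Hif3a were 0.95, 1.04, 0.52 and 0.65. Astrocyte markers summed in this class were 11080 and 13150 CPM, with 12 of 16 higher and none at 0, and neuronal markers of DG, CA1 and CA2/3 were 4147 and 3720 CPM.

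Nr3c2, the mineralocorticoid receptor, was lower in astrocyte-like nuclei at 901 and 499.8 CPM, a log2 ratio of -0.85 (-1.13 to -0.58). Its sublibraries ran from 789 to 1001 CPM in control and from 212 to 711 CPM in stress. It was one of 2 measured corticosteroid receptors, and Nr3c1 had a log2 ratio of -0.31 (-1.07 to 0.39). Map4k5 (-1.70), Csrnp3 (-1.60), Adamtsl1 (-1.47) and Tmeff2 (-0.97) were the farthest lower, but Adamtsl1 turned to 0.52 after thinning. Il1rap, the accessory chain of the IL-1 receptor, was lower at 159 and 96.9 CPM, and its relative Il1rapl2 was higher at 150.9 and 294.5 CPM, which makes 1 higher and 1 lower of 5 measured IL-1 and NF-kB genes. Over all genes of the class 6.97% were higher and 7.34% lower. Of 8 measured genes of uptake and metabolism, Pla2g7 alone was past 1.5-fold (88.0 and 136 CPM), with a log2 ratio of 0.45 and so under it when centred by gene span, and no gene of the reactive astrocyte list reached 100 UMIs.

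**Figure D5:**
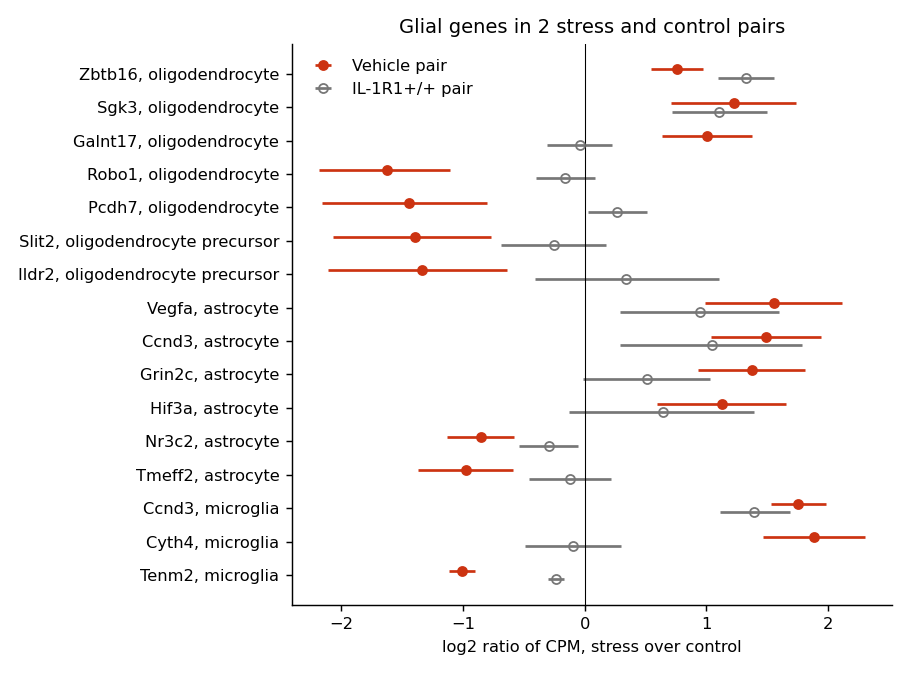
Log2 ratio of CPM, stress over control, of glial genes in the vehicle pair (filled) and in the IL-1R1+/+ pair (open), with 95% counting intervals. Vegfa in astrocyte-like nuclei lies at 1.55 and 0.95, Zbtb16 in oligodendrocyte-like nuclei at 0.76 and 1.32, and Cyth4 in microglia-like nuclei at 1.88 and -0.10.

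In microglia-like nuclei the summed level of microglial markers was higher in stress, while neuronal markers went in both directions. All 17 of 17 microglial markers were higher, none was at 0, and their sum was 1750 CPM (sublibraries 1507 to 2601) in Control-Vehicle and 4571 CPM (3384 to 6141) in Stress-Vehicle. Over single nuclei the median of this sum was 2140 and 6110 CPM, but in the IL-1R1+/+ pair it was 5652 in control and 3244 in stress. At a finer resolution 18 and 26 nuclei kept the name, while a cluster of 159 and 139 nuclei, led by Inpp5d and Csf1r but scoring highest for CA2/3, did not. Summed DG, CA1 and CA2/3 markers were 5182 and 4250 CPM, with 19 of 39 higher, 19 lower and 2 and 4 at 0. INH markers were 1939 and 2172 CPM, with 12 of 20 higher and 0 and 3 at 0, and thalamic excitatory markers 774 and 1410 CPM, with 5 of 12 higher and 5 and 6 at 0. These markers named the class, so their levels are a description, and the part that neuronal RNA has in the values below was not tested.

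Beside Rn7sk and Cdk8, the farthest higher genes of microglia-like nuclei were Cyth4 and Ccnd3. Cyth4, an exchange factor for ARF of blood cells and microglia, gave 48.1 to 163 CPM over the control and 247 to 316 CPM over the stress sublibraries, a log2 ratio of 1.88 (1.46 to 2.31). Ccnd3 (chromosome 17, 47815767 to 47910624) gave 232 to 489 and 786 to 1107 CPM, a log2 ratio of 1.76 (1.53 to 1.98), beside 1.39 in the IL-1R1+/+ pair. Neither gene's sublibraries overlapped between pools. The farthest lower were Banf2, Cdh9, Wasf1 and Tenm2, the last a synaptic adhesion protein of neurons at 4389 and 2185 CPM. Of 8 GABA-A receptor genes 5 were lower, of 13 glutamate receptor genes 4 and of 15 synaptic adhesion genes 5, and none of these was higher, beside 10.4% lower and 13.5% higher over all genes of the class. Centred by gene span, 2, 1 and 0 were lower, and the medians of the 3 lists moved from -0.64, -0.50 and -0.45 to -0.53, -0.18 and -0.15.

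The inflammatory genes Il1b, Tnf and Ccl2 had 0 UMIs in microglia-like nuclei of both pools. At the exact 95% bound this allows up to 3.39 CPM in Control-Vehicle and 9.19 CPM in Stress-Vehicle. No gene of the inflammatory list reached 100 UMIs there, which is a limit of counting and does not place the others near 0. Irak2, a kinase of IL-1 and Toll-like receptor signalling, was higher at 47.7 and 120 CPM, but turned from 1.32 to -0.24 with finer clusters. Fkbp5 gave 272 and 366 CPM, a log2 ratio of 0.43 (0.14 to 0.72), under 1.5-fold.

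Vessel-like nuclei were too few for named genes by the rule, so the genes here come from the lists. Zbtb16 gave 1152 and 2222 CPM, a log2 ratio of 0.95 (0.54 to 1.37), with sublibraries of 732 to 1603 and 1829 to 2869 CPM that did not overlap, beside 0.82 in the IL-1R1+/+ pair. Abcc4, an efflux transporter of the blood-brain barrier, gave 634 and 1148 CPM and was the only one of 5 measured barrier genes past 1.5-fold. Over all genes of the class 13.9% were higher and 8.98% lower.

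Il1r1, the receptor through which vessels sense IL-1, counted 6 UMIs in 32 vessel-like nuclei of Control-Vehicle and 83 UMIs in 46 of Stress-Vehicle. The levels were 115 (42.3 to 251) and 619 (493 to 767) CPM, a log2 ratio of 2.43 (1.24 to 3.91). Of the 83 UMIs, 61 came from 2 nuclei, with 42 and 19, and without the 2 highest nuclei of each pool the levels were 41.9 and 192 CPM. It was detected in 4 of 32 (12.5%, 3.51 to 29.0%) and 13 of 46 nuclei (28.3%, 16.0 to 43.5%), and these intervals overlapped. After thinning to 500 UMIs it was detected in 1 of 30 (3.33%) and 6 of 41 (14.6%). In oligodendrocyte-like nuclei, which should lack it, 4 of 293 (1.37%) and 0 of 135 nuclei held a UMI, at median depths of 1105 and 736 UMIs against 1454.5 and 1965 in vessel-like nuclei. In the IL-1R1+/+ pair, a comparison chosen after its values were seen, vessel-like Il1r1 measured 91.6 and 361 CPM. There, 2 nuclei held 17 of 22 UMIs in control and 2 held 67 of 122 in stress. Without them the levels of that pair were 25.3 and 172 CPM. Summed endothelial markers were 14630 and 14680 CPM and mural markers 2919 and 3490 CPM, so the markers of the class stood at similar levels in both pools.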

How the data were processed

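Nuclear RNA was counted in 8 pools, of which the Control-Vehicle and Stress-Vehicle pools were compared. The authors deposited counts of UMIs per nucleus and gene, whole and unscaled, made with the Parse Biosciences pipeline and aligned to mm39, and the submitters' processing notes name Seurat 4.1.1. The annotation release and aligner settings are not given in the sources used here. Each nucleus was assigned to its pool by the name the authors' table gives, and 0 columns of values were left unused. Of 56748 gene identifiers 56017 had a span in GENCODE M39, and 2693 names were blank and were not named here. Levels are not divided by gene length, so a gene is compared between pools and not with other genes.

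Nuclei over 20% mitochondrial UMIs were removed (30 in Control-Vehicle and 33 in Stress-Vehicle). Log-normalized counts of all 8 pools gave 2000 variable genes, 30 principal components, 15 neighbours and Leiden clusters at resolution 1 (Python 3.11.15, Scanpy 1.11.5, leidenalg 0.10.2, NumPy 2.4.6, SciPy 1.17.1). Clusters were named where 3 or more markers stood at 0.2 or more of their top CPM in any cluster and the leading score exceeded the next by 1.25 times, unless the 10 leading genes went against the name, which left 21112 of all nuclei unnamed. No author annotation of nuclei was used, so shares depend on these rebuilt names. Scrublet's automatic threshold marked 1 and 3 nuclei, under 0.5%, so doublets stayed in, and an alternative left out the 508 and 440 nuclei with the highest 6% of scores.

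UMIs were summed per class and pool. CPM have exact Poisson, shares exact Clopper-Pearson and log2 ratios exact conditional binomial 95% intervals, which cover counting error only. With 1 pool a condition no p-value was computed, and a gene is called higher or lower past 1.5-fold with at least 100 UMIs. Named are, per class of at least 50 nuclei in each pool, the 4 higher and 4 lower genes whose interval lies farthest from 0 among those with the same sign in all 4 sublibraries, leaving out markers, mitochondrial genes and clones, then the 10 genes past the fold in most classes, and members of the 19 gene lists. Members and lists were chosen with earlier results of these data known. The interval was tested on simulated data. Alternatives are thinning to 500 UMIs, clusters from the vehicle pools alone, resolution 2, no mitochondrial limit, minima of 50 and 300 UMIs, centring on the median gene and leaving out each sublibrary. Added after seeing the data were centring within 10 bins of gene span, the largest cluster of a class alone, and counting unnamed clusters by best score.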

Additional observations from a re-analysis of the deposited data

Results flagged for a closer look

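In 8 results, listed here, stress over control went one way in the vehicle pair and the opposite way in the IL-1R1+/+ pair, in all 4 sublibraries of each. The difference was not tested, and sublibraries are technical divisions of a pool, so these are differences between pools of 3 mice. The value given is the log2 ratio of the vehicle pair minus that of the IL-1R1+/+ pair, and 73 such contrasts were compared. For the share of INH-like nuclei it was -0.815. Thalamic excitatory-like nuclei were 20.7% of the control and 1.31% of the stress pool of the IL-1R1+/+ pair. Their part in this value was not tested. For Cdk8 the log2 difference was 2.086 in CA1-like, 2.586 in CA2/3-like and 2.764 in microglia-like nuclei. For Kcnq5 in CA2/3-like nuclei it was -1.516. For Ccnb1ip1 it was 4.872 in CA2/3-like and 3.418 in INH-like nuclei, and for Rpph1 in CA2/3-like nuclei 4.297, where both genes share 1 stretch of chromosome 14. None of the 78 sets of 4 sublibrary values examined had a member past Dixon's 95% value, which chance alone passes in about 1 of 20 sets.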

How the results depend on the processing

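No paired analysis was possible because each condition is 1 pool and the labels number only sublibraries, each of which holds nuclei of every pool. Thinned to 500 UMIs a nucleus, 644 class-gene pairs were past 1.5-fold higher and 440 lower in place of 3077 and 2139. The minimum stayed at 100 UMIs while thinning made the sums smaller, so fewer genes were measured and these counts do not compare the same genes. Of the calls, 59.0% were higher before and 59.4% after thinning. The counts that follow also rest on unequal numbers of measured genes where the minimum or the sublibraries changed. With a minimum of 50 UMIs these were 5429 and 4124, with 300 UMIs 1102 and 664, centred by gene span 2205 and 2153, and without 1 sublibrary 2381 to 2792 and 1758 to 2094. By class, the oligodendrocyte-like counts of 54 and 77 were 440 and 410 with clusters from the vehicle pools, where the class held more nuclei, and the microglia-like counts of 384 and 298 were 0 and 6 at resolution 2, where fewer nuclei kept the name. Without sublibrary 4 the higher counts of oligodendrocyte-like, precursor-like and vessel-like nuclei were 34, 100 and 21. The cause was not tested beyond what fewer UMIs and fewer genes imply. The median size of the log2 ratio over all class-gene pairs was 0.254, and 0.261 thinned, 0.261 with clusters from the vehicle pools, 0.240 at resolution 2 and 0.255 to 0.261 without 1 sublibrary.

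The log2 ratio of the DG-like share was 0.056 with clusters from the vehicle pools. That of the CA1-like share was -0.391 thinned, -0.360 at resolution 2, -0.748 without the mitochondrial limit, 0.517 with clusters from the vehicle pools and 0.389 by best score. That of the CA2/3-like share was -0.371, -0.264 and 0.019 with clusters from the vehicle pools, at resolution 2 and without the mitochondrial limit, and -0.089 by best score. The microglia-like share stood at 0.739 at resolution 2, where a second cluster led by Inpp5d and Csf1r stayed unnamed. Clusters from the vehicle pools gave no vessel-like value, since that cluster stayed unnamed, and without 1 sublibrary the vessel-like log2 ratio ran from 0.331 to 1.143.

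List medians moved as follows. The CREB list in DG-like nuclei was 0.103 centred by gene span. The IL-1 list there was -0.022 with 50 UMIs and -0.080 by gene span. The activity list in CA1-like nuclei was -0.777 thinned, -0.195 without the mitochondrial limit, -0.139 and -0.577 with 50 and 300 UMIs and -0.528 to -0.265 without 1 sublibrary. In INH-like nuclei it was 0.033 at resolution 2 and -0.478 to -0.102 without 1 sublibrary. The GABA-A list in INH-like nuclei was -0.201 at resolution 2, -0.203 by gene span and -0.356 to -0.223 without 1 sublibrary. In CA2/3-like nuclei the clock list was 0.183 with clusters from the vehicle pools, and the chaperone list was 0.048 with 300 UMIs, -0.406 by gene span and -0.223 to 0.022 without 1 sublibrary.

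Single genes were followed through the alternatives only for the farthest genes of each class and for some others named above. Among these, 7 instances reversed. Crtc2 and Grin3a in CA2/3-like nuclei, past 1.5-fold higher before thinning, were -0.181 and -0.211 thinned. Thinned values of Nr4a3 in INH-like nuclei and Adamtsl1 in astrocyte-like nuclei were 0.027 and 0.522. At resolution 2, Epb41l2 in oligodendrocyte precursor-like nuclei was 0.582 and Irak2 in microglia-like nuclei -0.244. Rpph1 was -0.476 in the main CA2/3-like cluster. Of the gene and class pairs followed and past 1.5-fold, 80 of 93 stayed past it thinned and 85 of 94 when centred by gene span. These counts do not cover all genes named above. Hsp90ab1, Tef, Irak1 and Rela, whose calls centring ended, are among those left out.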
